A study of Homo sapiens with 4 samples.

Results

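The loci of TAL1, LMO2, LYL1 and LDB1, genes of one haematopoietic transcription factor complex, were examined in ChIP-seq libraries of DPF2 and of histone H3 crotonylated at lysine 14 (H3K14cr) from K562 cells. K562 is an established human leukaemia line with erythroid features, labelled wild type, and all 4 libraries came from formaldehyde-fixed cells in standard culture. DPF2 and H3K14cr were each precipitated in 2 libraries, which held, DPF2 first, 7787444, 13317496, 10880366 and 17369133 reads. The members were the 1 kb tiles in fixed windows of hg19: chr1:47620001-47720000 for TAL1, chr11:33870001-33990000 for LMO2, chr19:13200001-13225000 for LYL1 and chr10:103860001-103890000 for LDB1. Of 275 tiles in these windows, 269 held at least 1 read in some library and were used, of 2598309 such tiles in all; the 6 tiles without reads lay in the TAL1 window. The members were 94 tiles for TAL1, 120 for LMO2, 25 for LYL1 and 30 for LDB1. TAL1 spans 47681962-47698007 and LMO2 spans 33880122-33913836, both on the minus strand, so that each gene starts at its higher coordinate. For LYL1 and LDB1 the positions within the window are given by coordinate alone.

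TAL1 is a basic helix-loop-helix factor that binds E-box DNA as a dimer with E proteins, and LYL1 is its close paralogue. LMO2 is a LIM-domain protein that binds no DNA itself and bridges TAL1 to GATA factors, and LDB1 binds LMO2 and self-associates, which brings distant elements and promoters together. The complex is required for blood formation and for erythroid genes, and TAL1 and LMO2 are oncogenes of T-cell leukaemia when misexpressed. DPF2 belongs to the BAF complexes, which remodel chromatin, and reads acylated histone tails, lysine 14 of H3 among them, through its paired PHD fingers.

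The annotated promoters are shown because the TAL1 start lies beside the tile with the highest mean level for both antibodies, described below. Another reason is that TAL1 is itself bound by GATA factors in erythroid cells. The promoter set used, from RefSeq (GRCh38.p14), held 4 promoters for 3 of the 4 genes and no entry for LMO2. Of these, 2 were for TAL1 with starts 620 bp apart, and all were on the minus strand. Each line gives the 250 bases before the start, 5′ to 3′ along the gene, in lower case. Capitals mark each match to GATAA or, on the opposite strand, TTATC, the core of the site bound by GATA factors. The positions, on GRCh38.p14 only, are chr1:47232336-47232585 and chr1:47231716-47231965 for TAL1, chr19:13102859-13103108 for LYL1 and chr10:102115003-102115252 for LDB1.
TAL1 promoter 1: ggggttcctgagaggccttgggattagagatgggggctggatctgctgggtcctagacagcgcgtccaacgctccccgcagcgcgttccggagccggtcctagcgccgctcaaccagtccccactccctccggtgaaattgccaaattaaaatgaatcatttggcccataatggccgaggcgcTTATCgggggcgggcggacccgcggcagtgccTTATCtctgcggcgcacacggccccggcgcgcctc
TAL1 promoter 2: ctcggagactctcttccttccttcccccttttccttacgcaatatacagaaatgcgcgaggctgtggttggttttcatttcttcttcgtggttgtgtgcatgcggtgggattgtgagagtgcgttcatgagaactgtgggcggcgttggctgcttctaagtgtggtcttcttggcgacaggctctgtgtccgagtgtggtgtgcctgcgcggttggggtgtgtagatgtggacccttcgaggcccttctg
LYL1 promoter: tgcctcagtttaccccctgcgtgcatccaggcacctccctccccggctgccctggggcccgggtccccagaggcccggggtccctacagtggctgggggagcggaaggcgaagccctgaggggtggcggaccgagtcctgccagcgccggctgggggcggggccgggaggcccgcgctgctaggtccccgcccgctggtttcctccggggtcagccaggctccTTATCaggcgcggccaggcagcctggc
LDB1 promoter: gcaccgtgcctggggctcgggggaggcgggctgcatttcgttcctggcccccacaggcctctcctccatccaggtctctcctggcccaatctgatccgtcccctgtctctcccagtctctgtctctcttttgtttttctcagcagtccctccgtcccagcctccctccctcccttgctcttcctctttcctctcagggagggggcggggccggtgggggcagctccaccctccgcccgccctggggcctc
The first TAL1 promoter held 2 matches, beginning 67 and 35 bases before the start. The LYL1 promoter held 1, beginning 27 bases before the start. The second TAL1 promoter and the LDB1 promoter held 0. Among all 35116 promoters of the same length, 20.4% held at least 1 match on either strand and 3.87% held 2 or more. The E-box CATCTG (reverse CAGATG) had 0 matches in the 4 promoters, against 12.2% of all promoters. A match is a run of letters and not a measured site.

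Over 1 kb tiles of the genome, the 2 libraries of either antibody agreed within sampling noise (chi-square per degree of freedom 0.981 for DPF2 and 0.990 for H3K14cr). They were therefore counted as 1 sample, n = 1 for each antibody, and nothing in the labels says that they came from separate cultures. Over the tiles of the 4 loci the value was 1.16 between DPF2 libraries and 0.984 between H3K14cr libraries. Between antibodies it was 1.23 to 1.41 over the same tiles. Differences between antibodies thus have no replicate check, and intervals cover counting error only. Levels are given as CPM, reads per 1000000 reads of the library.

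The first question was how much signal each locus carried. All 4 windows stood above the mean of their chromosome in all 4 libraries. The TAL1 window had 1.57 and 1.52 CPM per tile for DPF2 and 1.89 and 1.87 for H3K14cr, which was 3.12 and 3.03 times the chromosome mean for DPF2 and 3.71 and 3.66 times for H3K14cr. The LYL1 window had 1.71 and 1.86 CPM for DPF2 and 2.11 and 1.999 for H3K14cr, 2.58 to 3.03 times its chromosome. The LDB1 window had 1.02 and 1.03 CPM for DPF2 and 1.33 and 1.23 for H3K14cr, 2.60 to 3.38 times. The LMO2 window was the lowest, with 0.827 and 0.879 CPM for DPF2 and 1.07 and 1.11 for H3K14cr, 2.05 to 2.72 times. In CPM the order was LYL1, TAL1, LDB1 and LMO2 for each antibody. The libraries of LYL1 and TAL1 did not overlap for either antibody, nor did those of the lower neighbours, but the windows differ in length and in how much flanking sequence they hold.

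Each window was set against stretches of its own length, cut from the genome without overlap. Those with reads in at least 80% of their tiles were kept, and means were taken over tiles with reads. The TAL1 window was reached or exceeded by 0.218 to 0.256% of 26180 such stretches, depending on the library. For LYL1 the share was 0.220 to 0.322% of 102341, for LDB1 1.70 to 3.11% of 85667 and for LMO2 2.53 to 5.90% of 21851. Part of this level was shared with the neighbourhood. The 1 Mb around each window stood at 1.22 to 1.25 times the chromosome mean for TAL1, 1.08 to 1.11 for LMO2, 1.35 to 1.40 for LYL1 and 1.44 to 1.61 for LDB1. Over that 1 Mb the windows were still higher, 2.46 to 3.05 times for TAL1, 1.87 to 2.51 for LMO2, 1.92 to 2.16 for LYL1 and 1.80 to 2.11 for LDB1. No control library was analysed here, and the part of copy number or open chromatin in these levels was not tested.

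**Figure D1:**
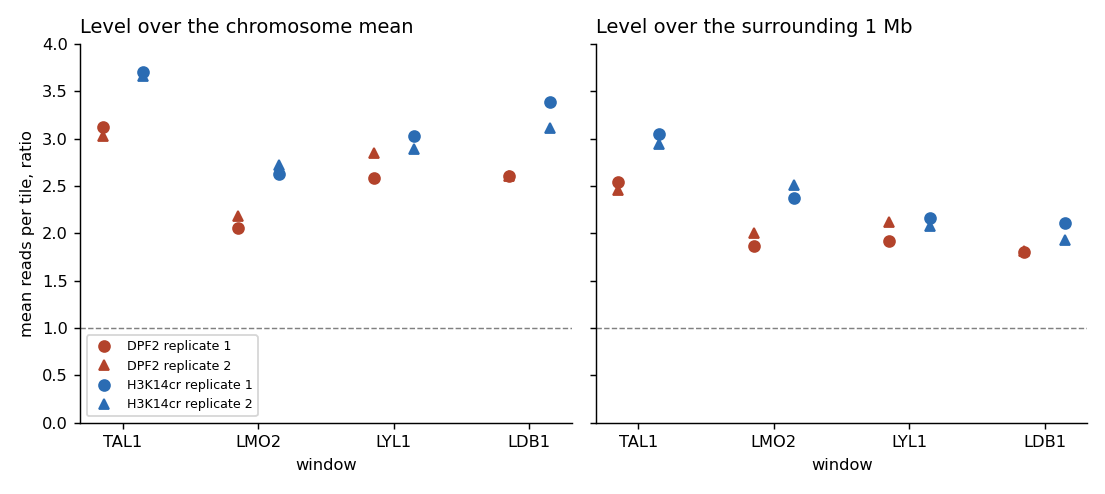
Mean reads per 1 kb tile of each window divided by the mean of its chromosome (left) and of the surrounding 1 Mb (right), 1 point per library; circles are replicate 1 and triangles replicate 2. All points lie above 1 (dashed line), from 2.05 to 3.71 on the left and from 1.80 to 3.05 on the right.

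Single tiles were then set against their surroundings. A tile was first called enriched when both libraries of an antibody held at least 3 times the background, with a one-sided Poisson p of at most 0.001 after Benjamini-Hochberg adjustment. The background was the chromosome mean or, where higher, the mean of the 20 kb around the tile. By that rule 0 of the 269 tiles were enriched for DPF2, where 0.221% of all tiles were, and 0 for H3K14cr, where 0.425% were. Likewise 0 were enriched for both antibodies, against 0.165% of all tiles. At shares this small, a count of 0 among 269 tiles says little about these loci. At an unadjusted Poisson p under 0.05 in both libraries, 24 tiles passed for DPF2 (8.92%, against 2.14% of all tiles) and 36 for H3K14cr (13.4%, against 2.83%). The surroundings of these tiles were themselves high: the median background of the surrounding 20 kb was 2.49 and 2.58 times the chromosome mean for DPF2 and 3.11 in both H3K14cr libraries, against 0.754 to 0.817 over all tiles. The highest fold over the larger background reached by both libraries was 2.53 for DPF2 and 2.59 for H3K14cr. By a single library, replicate 1 called 1 tile for DPF2, where it called 0.317% of all tiles, and 2 for H3K14cr, where it called 0.573%; replicate 2 of each antibody called 0. On tiles shifted by 500 bp, chr11:33890501-33891500 within LMO2 passed in both H3K14cr libraries, at 3.29-fold and 3.10-fold.

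Against the mean of the chromosome alone, with the same p and fold, 41 tiles were raised for DPF2 (15.2%) and 91 for H3K14cr (33.8%). Over all tiles the shares were 1.11% for DPF2 and 2.12% for H3K14cr. All 41 tiles raised for DPF2 were also raised for H3K14cr, so 50 were raised for H3K14cr alone and 0 for DPF2 alone; 0.95% of all tiles were raised for both, 1.17% for H3K14cr alone and 0.162% for DPF2 alone. The H3K14cr libraries are deeper on average. With all libraries thinned to the shallowest, 28 tiles were raised for DPF2, 55 for H3K14cr and 25 for both. The shares of all tiles were then 0.838%, 1.26% and 0.651%. So thinned, 30 were raised for H3K14cr alone and 3 for DPF2 alone, against 0.605% and 0.186% of all tiles. Tiles raised for DPF2 alone numbered 2 to 4 with tiles of 500 bp or 2 kb, shifted tiles and the 1 Mb background. There 0.0822 to 0.311% of all tiles were raised for DPF2 alone. With a 5-fold level there was 1 (0.103% of all tiles). With the libraries of each antibody summed there were 10 (0.785%), against 31 for H3K14cr alone (1.69%). The comparison with the chromosome mean was brought forward because the stricter background called 0 tiles. In the TAL1 window 23 of 94 tiles were raised for DPF2 and 46 for H3K14cr, and in the LYL1 window 8 and 11 of 25. In the LDB1 window 5 and 10 of 30 tiles were raised, and in the LMO2 window 5 and 24 of 120. Against the 1 Mb around each tile the counts were 22 for DPF2 and 55 for H3K14cr, where 0.593% and 1.10% of all tiles passed. Without DPF2 replicate 1, the shallowest library, 79 tiles were raised for DPF2, where 2.54% of all tiles were, and without DPF2 replicate 2 the count was 48, where 1.41% were.

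**Figure D2:**
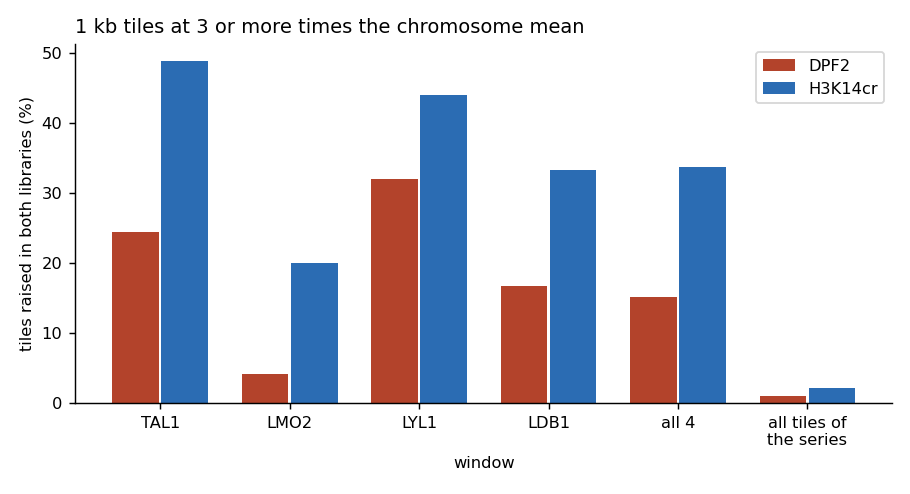
Share of 1 kb tiles, in percent, at 3 or more times the chromosome mean with an adjusted Poisson p of at most 0.001 in both libraries of an antibody, for each window, for the 4 windows together and for all tiles of the series. H3K14cr exceeds DPF2 in each window, and the 4 windows together stand at 15.2% and 33.8% against 1.11% and 2.12% over all tiles.

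Within the TAL1 window the tile with the highest mean lay at the gene start. The tile chr1:47697001-47698000, the first full tile inside the gene, had 4.75 and 4.96 CPM for DPF2 and 7.17 and 7.25 for H3K14cr. These were the highest means of any tile in the 4 windows for both antibodies. The next tile upstream, chr1:47698001-47699000, which holds the annotated start and the bases before it, had 3.98 and 3.68 CPM for DPF2 and 4.78 and 4.66 for H3K14cr. Both H3K14cr libraries were highest at chr1:47697001-47698000, but neither DPF2 library was. DPF2 replicate 1 was highest at chr1:47694001-47695000, with 4.88 CPM, and DPF2 replicate 2 at chr1:47647001-47648000, with 5.33. A stretch of 13 touching tiles, chr1:47687001-47700000, was raised for H3K14cr, reaching from 2.0 kb upstream to 11.0 kb downstream of the start. For DPF2 the raised stretch was 7 tiles, chr1:47693001-47700000. The gene span as a whole had 2.42 and 2.19 CPM for DPF2 and 3.04 and 2.92 for H3K14cr, against 1.40 and 1.38, and 1.66 in both H3K14cr libraries, in the rest of the window.

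In steps of 500 bp, H3K14cr held a plateau from the start to 2.0 kb downstream, at 6.43 to 7.90 CPM per kb in replicate 1 and 5.41 to 7.95 in replicate 2. DPF2 had 5.39 and 4.51 at 0.5 to 1.0 kb and 1.80 and 3.45 at 1.5 to 2.0 kb, though its replicates differ there (7 and 23 reads). All 4 libraries were low at 2.0 to 2.5 kb, with 1.54 and 1.50 for DPF2 and 2.21 and 3.22 for H3K14cr. At 3.0 to 3.5 kb DPF2 had 6.16 and 6.31 CPM per kb, from 66 reads against 52 and 51 in the first 2 steps, and H3K14cr had 4.60 and 7.02. The ratio of DPF2 to H3K14cr in pooled reads, scaled by library totals, was 0.496 (95% exact binomial interval 0.336 to 0.719) at 1.0 to 1.5 kb. At 3.0 to 3.5 kb it was 1.03 (0.734 to 1.43). These 2 steps were singled out after their values were seen; they held 40 and 66 reads for DPF2 and 108 and 86 for H3K14cr.

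**Figure D3:**
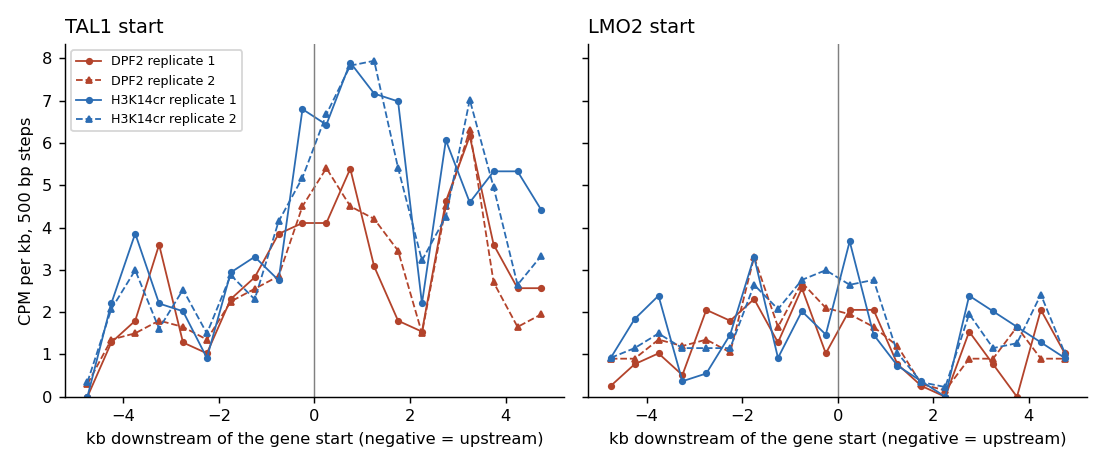
Reads in 500 bp steps, as CPM per kb, from 5 kb before to 5 kb after the annotated starts of TAL1 (left) and LMO2 (right), 1 line per library; the grey line marks the start. At TAL1 the H3K14cr lines lie above the DPF2 lines from the start to 2 kb and meet them near 3 kb, while at LMO2 all steps lie between 0.000 and 3.68, with both H3K14cr libraries above both DPF2 libraries in the first 500 bp.

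A second group of high tiles lay far downstream of TAL1, on the side of its neighbour PDZK1IP1 in the gene order of RefSeq. An erythroid enhancer of TAL1 is known downstream of the gene beyond PDZK1IP1; whether these tiles hold it was not tested. The 6 tiles chr1:47644001-47650000, 48.0 to 54.0 kb downstream of the start, had 3.13 and 3.05 CPM for DPF2 and 4.09 and 3.89 for H3K14cr. By mean, the highest of them for DPF2 and H3K14cr alike was chr1:47647001-47648000, with 3.72 and 5.33 CPM for DPF2 and 5.42 and 5.70 for H3K14cr. Its neighbour chr1:47646001-47647000 had 4.37 and 4.51 CPM for DPF2 and 4.04 and 3.51 for H3K14cr. Here both DPF2 libraries were above both H3K14cr libraries, and DPF2 replicate 1 was at its highest of the 6 tiles. H3K14cr replicate 1 was highest at chr1:47644001-47645000 instead, with 5.515 CPM. A peak of H3K14cr 39.5 kb downstream, chr1:47658001-47659000, had 4.69 and 3.34 CPM against 2.44 and 2.55 for DPF2. DPF2 was thus about as high at this distal group as at the start, where the 7 raised tiles had 3.47 and 3.45 CPM. Its 4 raised tiles chr1:47644001-47648000 had 3.66 and 3.72 CPM.

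One stretch of the TAL1 window leaned to DPF2. At chr1:47640001-47642000, 56.0 to 58.0 kb downstream of the start, DPF2 had 2.89 and 2.37 CPM and H3K14cr 1.93 and 1.70, and the groups did not overlap. The ratio was 1.43 (1.08 to 1.90), the only one of 15 stretches of 2 or more raised tiles in the 4 windows whose interval lay above 1. The interval of the 13 tiles at the start was 0.660 to 0.792, around a ratio of 0.723. The stretch was picked for its ratio, and neither of its tiles was called different between antibodies in the fit described below.

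LMO2 had lower levels than TAL1, in 13 separate runs of tiles raised for H3K14cr against 14 at TAL1, and 3 against 13 for DPF2. LMO2 is transcribed from more than 1 promoter, among them a distal one at the annotated start and a proximal one within the annotated span. At the annotated start, the tile chr11:33913001-33914000 had 2.06 and 2.18 CPM for DPF2 and 2.94 and 2.82 for H3K14cr. With the 2 tiles upstream it formed a stretch raised for both antibodies, at 1.93 and 2.20 CPM for DPF2 and 2.21 and 2.61 for H3K14cr, a ratio of 0.856 (0.683 to 1.07). By mean, the highest DPF2 tile of the window was chr11:33906001-33907000, with 2.31 and 2.10 CPM, and H3K14cr there was 1.75 and 2.02. Its DPF2 mean was 2.207 CPM, against 2.116 at the start tile. Each DPF2 library was higher at some other tile, reaching 2.44 CPM in replicate 1 and 2.25 in replicate 2.

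The highest H3K14cr tile of LMO2 had less DPF2 than H3K14cr. At chr11:33890001-33891000, 23.3 kb downstream of the start and inside the gene span, H3K14cr had 3.68 and 3.17 CPM and DPF2 1.41 and 1.28. With the next 2 tiles it formed chr11:33890001-33893000, at 2.97 and 3.09 CPM for H3K14cr and 1.28 and 1.13 for DPF2. The ratio of this stretch was 0.389 (0.297 to 0.505), the lowest of the 15 stretches. Of 59218 tiles raised for either antibody anywhere in the genome with a mean of at least 10 reads, 0.780 to 1.57% had a ratio as low as or lower than these 3 tiles. The tile chr11:33961001-33962000, upstream of the gene, was lower still, with a ratio of 0.3005 at 0.171%. The 3 tiles were raised for H3K14cr alone and named from the highest H3K14cr tile. That choice, made in the same libraries, favours a low ratio, so their place only describes them. DPF2 was not called as raised at these 3 tiles. At the first it stood at 3.51 and 3.17 times the chromosome mean, above the fold that the rule asks for, and missed the call on its p, from 11 and 17 reads.

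Another LMO2 site lay far upstream. The stretches chr11:33956001-33959000 and chr11:33960001-33965000, between 42.2 and 51.2 kb upstream of the start, were raised for H3K14cr. The nearer had 2.57 and 2.21 CPM for H3K14cr and 1.28 and 1.35 for DPF2, a ratio of 0.565 (0.433 to 0.733). The farther had 1.95 and 2.07 CPM for H3K14cr and 0.976 and 1.22 for DPF2, a ratio of 0.557 (0.446 to 0.692). In both, the H3K14cr libraries lay above the DPF2 libraries. The 10 tiles of the window beyond the 3′ end of LMO2 had 0.501 and 0.586 CPM for DPF2 and 0.432 and 0.524 for H3K14cr, and none was raised.

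**Figure D4:**
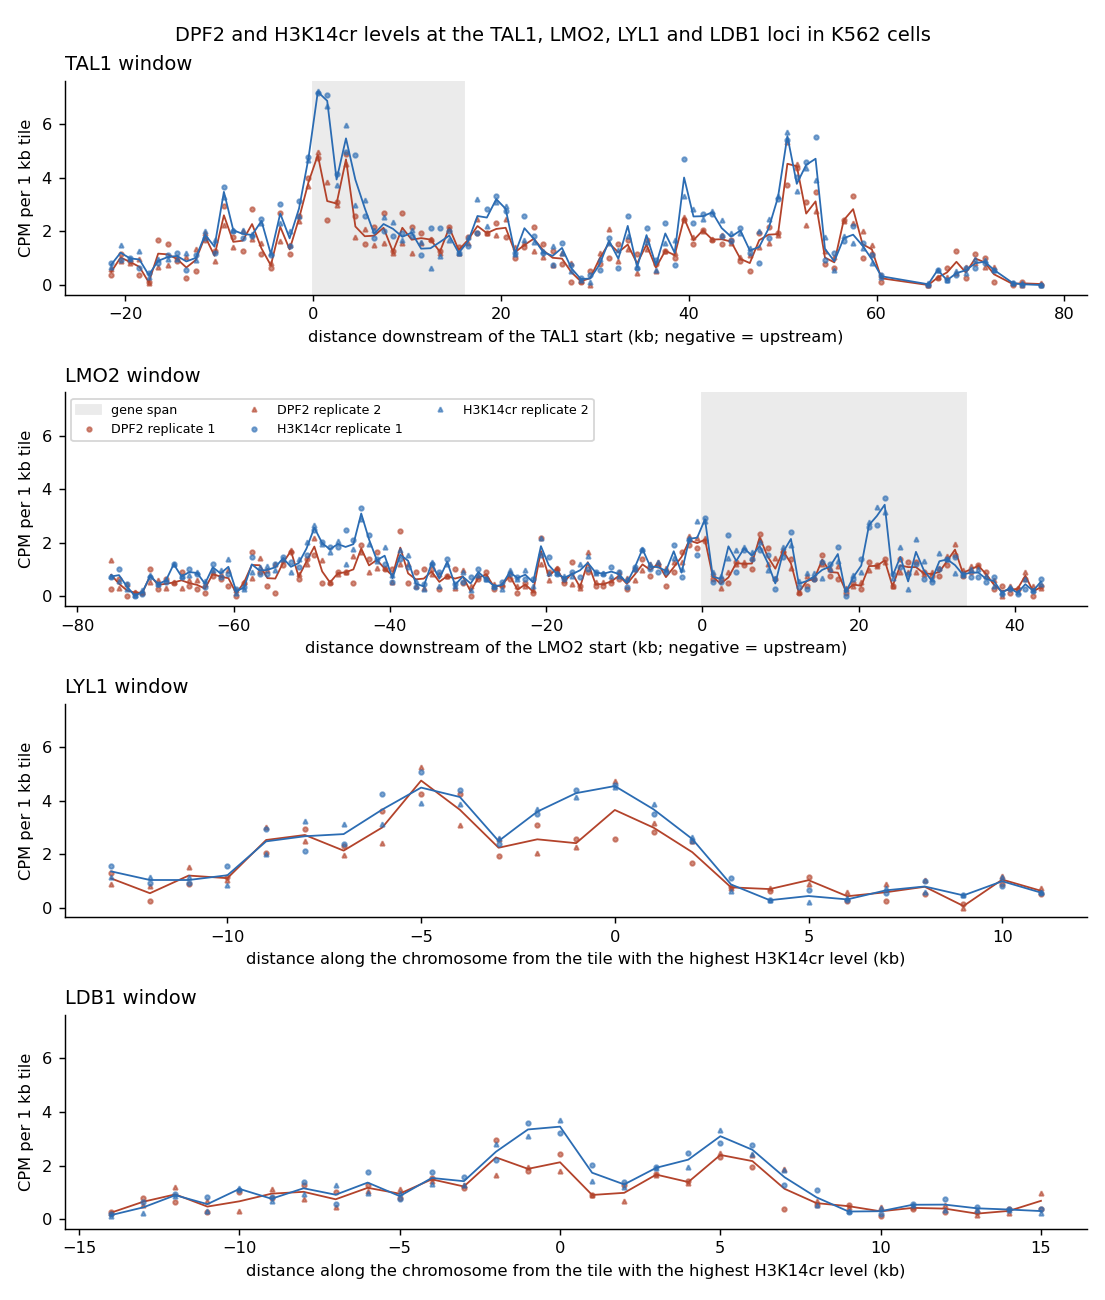
CPM per 1 kb tile across the 4 windows; points are libraries, lines the mean of the 2 libraries of an antibody, and grey areas the annotated spans of TAL1 and LMO2. Tiles without reads are left out, so lines bridge them. The TAL1 start and the group near 50 kb downstream reach 7.25 and 5.70 CPM for H3K14cr, and the LMO2 peak within the gene has H3K14cr above DPF2.

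LYL1 lies between NFIX and TRMT1 in the gene order of RefSeq, and its window held a single block of signal. All 11 tiles of chr19:13205001-13216000 were raised for H3K14cr, and 8 of them for DPF2, while the other 14 tiles of the window were raised for neither. The block had 2.91 and 2.94 CPM for DPF2 and 3.55 and 3.51 for H3K14cr, a ratio of 0.831 (0.754 to 0.915). It had a pair of humps. The DPF2 maximum, chr19:13208001-13209000, had 4.24 and 5.26 CPM for DPF2 and 5.06 and 3.92 for H3K14cr, which overlap. For H3K14cr, that tile and chr19:13213001-13214000 were close, with means of 4.485 and 4.543 CPM, and replicate 1 was higher at the former. The H3K14cr maximum by mean, chr19:13213001-13214000, had 4.60 and 4.49 CPM for H3K14cr and 2.57 and 4.73 for DPF2. The DPF2 libraries disagree at this tile, and its ratio of 0.868 (0.650 to 1.15) was 0.567 without DPF2 replicate 2, 1.04 without DPF2 replicate 1 and 1.09 on tiles shifted by 500 bp.

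LDB1 also had a pair of sites. The 6 tiles chr10:103870001-103876000 had 2.39 and 2.27 CPM for H3K14cr and 1.80 and 1.50 for DPF2, a ratio of 0.695 (0.584 to 0.825). The 4 tiles chr10:103877001-103881000 had 2.51 and 2.40 CPM for H3K14cr and 1.83 and 1.97 for DPF2, a ratio of 0.786 (0.643 to 0.957). H3K14cr was highest in the first, at chr10:103874001-103875000, with 3.22 and 3.69 CPM against 2.44 and 1.80 for DPF2. By mean, DPF2 was highest in the second, at chr10:103879001-103880000, with 2.31 and 2.48 CPM against 2.85 and 3.34 for H3K14cr. At both of these maxima the H3K14cr libraries lay above the DPF2 libraries. DPF2 replicate 1 was highest in the first site instead, at chr10:103872001-103873000, with 2.95 CPM. The mean of DPF2 there was 2.303 CPM, against 2.395 at its maximum.

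The second question was how DPF2 compared with H3K14cr across the loci. Relative to library totals, DPF2 was lower than H3K14cr in all 4 windows. The ratio was 0.785 (0.744 to 0.828) for LMO2, 0.809 (0.733 to 0.893) for LDB1, 0.818 (0.782 to 0.856) for TAL1 and 0.885 (0.815 to 0.961) for LYL1, and the intervals of neighbours in this order overlap. With median-of-ratios factors they became 0.875, 0.902, 0.913 and 0.987, and the interval for LYL1 then included 1 (0.909 to 1.07). Of the 15 stretches, 14 had a ratio below 1 under both scalings, with the whole interval below 1 in 11 and, with median-of-ratios factors, in 7. The median ratio of the 91 raised tiles was 0.777, close to the 0.795 of all 59218 raised tiles of the genome; by locus it was 0.633 for LMO2, 0.792 for TAL1, 0.796 for LDB1 and 0.844 for LYL1. Raised tiles were chosen by calls in the same libraries, and over the genome more of them were H3K14cr calls. At these loci all 91 were H3K14cr calls, 41 of them DPF2 calls as well, and so were all tiles of the 15 stretches. Choosing tiles by high H3K14cr favours ratios below 1, so these ratios describe the tiles and are no separate support.

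**Figure D5:**
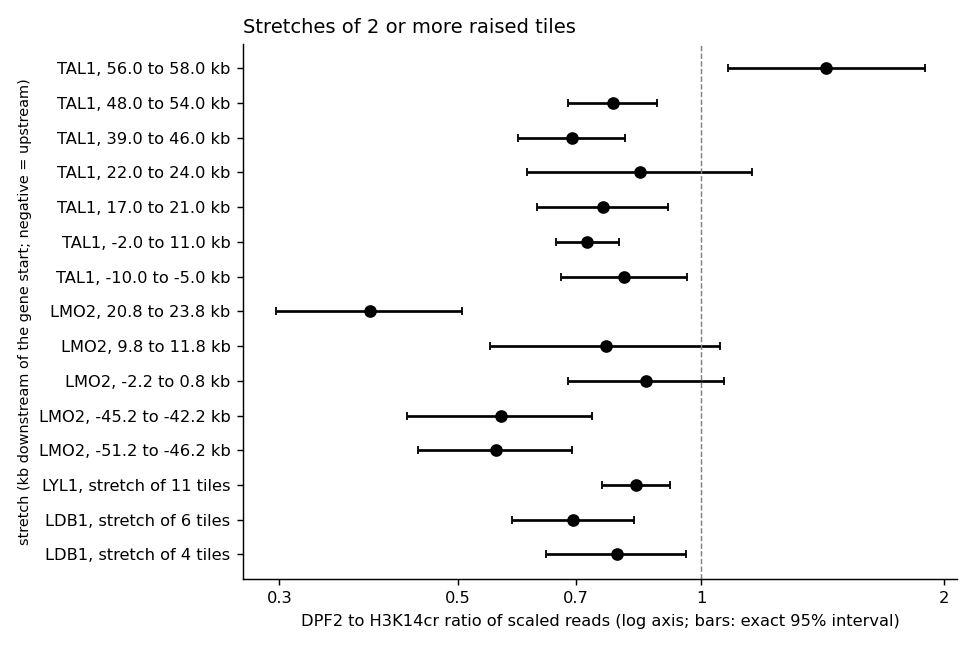
Ratio of DPF2 to H3K14cr in pooled reads scaled by library totals, on a log axis, for the 15 stretches of 2 or more touching raised tiles; bars are exact 95% binomial intervals and the dashed line marks 1. The stretch 20.8 to 23.8 kb inside LMO2 is lowest at 0.389, and the stretch 56.0 to 58.0 kb downstream of TAL1 is highest at 1.43. All tiles of these stretches were raised for H3K14cr, a choice that favours ratios below 1.

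Across tiles, the mean levels of the antibodies rose and fell together, with a Spearman correlation of 0.909 for TAL1 (94 tiles), 0.911 for LYL1 (25), 0.913 for LDB1 (30) and 0.761 for LMO2 (120). Between the DPF2 libraries it was 0.815, 0.859, 0.715 and 0.633 in the same order, and between the H3K14cr libraries 0.878, 0.923, 0.887 and 0.826. These describe neighbouring tiles that share mappability, copy number and depth, and single libraries are noisier than means.

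Tile by tile, the difference was tested with limma (trend) on log2(CPM + 0.5). The fit laid down at first, on tiles enriched over the larger background, contained 0 tiles of these loci. Of the 255612 tiles that averaged 10 reads or more, 181 were among the 269. At an adjusted p of at most 0.05 (Benjamini-Hochberg), limma called 6 of them, all higher in H3K14cr (3.31% of the 181 tested; 1.39% of the 255612 were called, 1.19% as higher in H3K14cr and 0.202% as higher in DPF2). Scaled by median-of-ratios factors, 4 of the 181 were called (2.21%, against 0.532% of the 255612), again higher in H3K14cr. The split of all calls moved from 516 higher in DPF2 and 3032 in H3K14cr to 596 and 765. In log2, DPF2 minus H3K14cr had a median of -0.23 over the 181 tiles and -0.11 over the 255612, and the other scaling moved these to -0.11 and 0.00. On folds over the local 20 kb mean the median over the 181 tiles changed sign, to 0.03, so the lower DPF2 level held relative to library totals and not relative to the surroundings. The values are on the log2(CPM + 0.5) scale, which understates the change of low tiles. The p-values measure only the spread between these libraries, which may be technical.

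The called tile of TAL1 was chr1:47696001-47697000, the second full tile inside the gene, with 2.44 and 3.83 CPM for DPF2 and 7.08 and 6.68 for H3K14cr. Its log2 difference was -1.05 (SE 0.184, limma adjusted p = 8.37e-05). At LMO2 the 3 tiles of chr11:33890001-33893000 were called, with log2 differences of -1.09, -1.09 and -0.96 (limma adjusted p = 0.00309, 0.00475 and 0.0197). The last of them was not called with median-of-ratios or TMM factors (limma adjusted p = 0.103 and 0.0735). Upstream, chr11:33961001-33962000 had 0.514 and 0.526 CPM for DPF2 and 1.84 and 1.67 for H3K14cr, a log2 difference of -1.14 (limma adjusted p = 0.00718). The sixth was chr11:33910001-33911000, with 0.514 and 0.901 CPM for DPF2 and 2.30 and 1.44 for H3K14cr (log2 difference -0.97, limma adjusted p = 0.0334), which was not called with those factors either. In all 6 tiles both H3K14cr libraries lay above both DPF2 libraries. LYL1 and LDB1 had no called tile: the lowest limma adjusted p were 0.0567 at chr19:13212001-13213000 and 0.107 at chr10:103873001-103874000, with log2 differences of -0.72 and -0.69. DESeq2 called 0 of the 181 tiles, where it called 0.0634% of the 255612. At an unadjusted p under 0.05 DESeq2 had 12 (6.63%, against 2.35% of the 255612). On folds over the local 20 kb mean limma also called 0, where it called 0.0141% of the 255612. There limma had 10 at an unadjusted p under 0.05 (5.52%, against 7.96%). Without either H3K14cr library it called 0, with 19 (10.5%, against 5.38%) at an unadjusted p under 0.05 without replicate 1 and 28 (15.5%, against 7.74%) without replicate 2.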

How the data were processed

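DPF2 and H3K14cr ChIP-seq of K562 cells was used, 2 libraries each, grouped by their titles. Per the submitters' processing notes Bowtie2 was used, without a version, and the builds mm9 and hg19 are named; how duplicates were handled and how bins were made is not stated by any source used here. The signal deposited by the authors lists 100 bp bins with reads, scaled to 10000000 reads per library. Positions on chromosome 1 exceed its GRCh38 length, so hg19 was taken as the build. Dividing by the value of 1 read gave whole reads, within 0.005, for all but 0 to 4 bins per library (99.9999% or more). Bins were assigned to 1 kb tiles by their midpoint.

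Enrichment was called per library by a Poisson test over all tiles, with the surrounding 20 kb taken without the tile itself. Differences were fitted with limma 3.58.1 over tiles averaging 10 reads or more; edgeR 4.0.16 on the recovered reads called 4009 of 255612 tiles, 7 of them at these loci. DESeq2 1.42.0, R 4.3.3, scipy 1.17.1, pandas 2.3.3, numpy 2.4.6, matplotlib 3.10.9 and Python 3.11.15 were used. Calling and fits were tested on simulated data. Named tiles were those called over the larger background, the highest of each antibody per window and those with the TAL1 and LMO2 starts; stretches, steps and tiles that differed were named after their values were seen. The loci and rules were chosen with earlier results of these data known. Other genes of the complex, which need an hg19 annotation, were not analysed here.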

Additional observations from a re-analysis of the deposited data

How the results depend on the processing

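The alternatives made over the chromosome background, and those of the fit over tiles averaging 10 reads or more, were chosen after seeing the data. Enrichment over the larger background stayed at 0 tiles for DPF2 and for both antibodies together in the tile sizes, grids, folds and depths tried. H3K14cr had 1 tile with 500 bp tiles and 1 with tiles shifted by 500 bp, where 0.27% and 0.425% of all tiles were enriched. With a single library, DPF2 had 0 to 1 tiles (0.317 to 0.496% of all tiles) and H3K14cr 0 to 2 (0.573 to 0.672%). The chromosome background alone gave 41 for DPF2 (1.11% of all tiles), 91 for H3K14cr (2.12%) and 41 for both (0.95%). From there, 500 bp tiles gave 23 for DPF2 (0.419%) and 19 for both (0.337%), and 2 kb tiles 52 of 137 for H3K14cr (2.88%). Requiring a 5-fold level gave 11, 36 and 10 (0.546%, 0.909% and 0.443%). The 1 Mb around gave 22, 55 and 20 (0.593%, 1.10% and 0.488%). Thinning to the shallowest library gave 55 for H3K14cr (1.26%) and 25 for both (0.651%), and summed libraries 92 for DPF2 (3.1%) and 82 for both (2.32%). With a library left out, DPF2 had 48 to 79 (1.41 to 2.54%), H3K14cr 100 to 117 (2.78 to 3.81%) and both 41 to 65 (0.976 to 1.51%). The cause was not tested beyond the number of tiles and libraries that each setting takes.

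Tiles that differed numbered 6 of 181 in the fit over tiles averaging 10 reads or more, 0 with DESeq2, 0 on folds over the local 20 kb mean, and 0 to 12 with a library left out, where the remaining library is taken to vary as the other antibody does. With a library left out, the share of all tested tiles that was called moved in the same direction as the count at these loci. The change in that count is therefore not particular to these loci. The fit with a replicate block called 8 (4.42% of the 181, against 1.65% of the 255612). The correlation of deviations between libraries with the same number was 0.00147, and the numbers are not known to pair the libraries. Other settings of the fit on enriched tiles gave no value, since it held no tile of these loci. The 6 called tiles kept their direction in all 72 recomputed values and lost the call in 30. Ratios of named tiles stayed within their interval in 60 of 63 values. Window levels stayed within the spread of libraries in 16 of 32 values, all of them with a library left out. Such a value is that of the remaining library and could not leave the spread. The other 16, over the surrounding 1 Mb or without raised tiles, all left it. Without raised tiles the windows stood, as means of an antibody, at 1.29 to 2.04 times the chromosome mean.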
